A study of Mus musculus with 2 samples.

Results

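Spp1 (osteopontin), Fn1 (fibronectin), Thbs1 (thrombospondin-1), Vcan (versican), Col14a1 (the collagen XIV chain), Prg4 (proteoglycan 4, also called lubricin) and Tgm2 (transglutaminase 2) were read in CD45+ cells of the mouse heart after transverse aortic constriction (TAC), a surgical narrowing of the aorta that loads the left ventricle with pressure. They are 7 of the 27809 genes in the matrix. They were chosen by name with their levels over groups and cell classes of this same matrix in view, so the values below describe the genes and no test was run on them. The mice were males of 8 weeks of age on a C57BL/6 background, and hearts were taken 1 week after surgery. The labels give the strain of the pooled library as C57BL/6N, and the substrain of the CD3ϵ-/- mice alone is not given in the sources used here. The 5 groups were WT sham, CD3ϵ-/- sham (mice that lack the CD3ϵ chain and so have no mature T cells), WT TAC, CD3ϵ-/- TAC, and CD8-depleted TAC (WT mice with TAC that received an antibody to CD8). CD45+ cells were enriched by magnetic selection, each group got its own hashtag, and all 5 groups were pooled and read as 1 library by TAS-Seq, a BD Rhapsody method. Each group is thus 1 sample, how many hearts it holds is not given in the sources used here, and no spread between animals can be given.

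These proteins act where cells meet the extracellular matrix. Fibronectin is a scaffold that integrins pull into fibrils, versican is a large proteoglycan that binds hyaluronan, collagen XIV sits on the surface of collagen fibrils, and transglutaminase 2 crosslinks matrix proteins. Osteopontin and thrombospondin-1 are matricellular proteins, which signal to cells through integrins, CD44, CD36 and CD47 more than they bear load, and macrophages are a known source of osteopontin in the injured heart. Lubricin is a secreted mucin-like protein best known from joint surfaces.

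After quality filters 5263 of 5363 barcodes were kept. Of these, 3328 cells had at least 300 CPM (reads of a gene per 1000000 reads) of Csf1r and at least 2000 CPM of Lyz2, and are called monocytes and macrophages here. By group they numbered 552 in WT sham, 465 in CD3ϵ-/- sham, 1068 in WT TAC, 652 in CD3ϵ-/- TAC and 591 cells in CD8-depleted TAC. Their median depth was 75547.5, 81730, 101350, 129434 and 107620 reads per cell in the same order, so the groups after TAC were read more deeply. Levels are summed reads of a gene per 1000000 summed reads of the group's cells. They are compared within a gene and not between genes. Intervals are exact (Poisson for levels, Clopper-Pearson for shares), cover 95% and describe counting error only, and the reads are not independent molecules.

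The labels were checked with T cell genes over all kept cells. Cd3e was read at 17.8 CPM in WT sham, 3.73 in CD3ϵ-/- sham, 10.8 in WT TAC, 5.64 in CD3ϵ-/- TAC and 13.6 CPM in CD8-depleted TAC, and whether the remaining reads lie outside the altered part of the gene is not given in the sources used here. Cd3g was at 45.6, 0.555, 17.5, 0.0661 and 22.5 CPM and Cd8b1 at 7.73, 0, 10.7, 0 and 7.74 CPM. Cd3g and Cd8b1 were thus near 0 in both CD3ϵ-/- groups, while Cd3e was lowered but still read in 9.03% of the cells of CD3ϵ-/- TAC, against 6.38% of WT TAC, and Cd8b1 in the group labelled CD8-depleted TAC lay between WT sham and WT TAC. Cd8a was read in 8 of 894 cells of that group and in 16 of 1615 cells of WT TAC.

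On GRCm38.p6 the 7 genes lie on 5 chromosomes. Spp1 is at chr5:104435111-104441053, Fn1 at chr1:71585473-71653280, Thbs1 at chr2:118111876-118127133, Vcan at chr13:89655309-89743027, Col14a1 at chr15:55307644-55520803, Prg4 at chr1:150449412-150466221 and Tgm2 at chr2:158116405-158146392. RefSeq promoter sequences were at hand for only 2 of the 7, Spp1 and Vcan, and these are shown. Each run holds the 250 bases before an annotated start, written 5′ to 3′ on the strand of the gene, which is plus for Spp1 (chr5:104434861-104435110) and minus for Vcan (chr13:89742513-89742762). The Vcan window lies inside the Vcan locus given above. Capitals mark a PU.1 core (GAGGAA) and a CCAAT box, which reads ATTGG on the strand shown.
Spp1: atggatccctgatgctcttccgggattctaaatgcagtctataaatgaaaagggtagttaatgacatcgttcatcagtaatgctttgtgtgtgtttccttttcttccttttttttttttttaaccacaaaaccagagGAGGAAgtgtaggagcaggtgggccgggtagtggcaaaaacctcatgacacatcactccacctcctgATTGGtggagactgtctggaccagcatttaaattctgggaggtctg
Vcan: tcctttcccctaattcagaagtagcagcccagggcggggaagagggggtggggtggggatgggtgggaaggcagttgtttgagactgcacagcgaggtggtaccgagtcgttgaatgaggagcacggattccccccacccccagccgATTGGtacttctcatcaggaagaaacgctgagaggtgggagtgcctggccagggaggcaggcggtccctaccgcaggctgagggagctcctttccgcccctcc
PU.1 is the transcription factor that marks the myeloid lineage. The PU.1 core lay 113 bases before the first annotated Spp1 start and had no match in the Vcan window, and the CCAAT box lay 46 bases before the same start in Spp1 and 103 in Vcan. Both strands were searched, and the marked motifs do not overlap. Of 32851 mouse promoter windows of the same length, 23.3% hold GAGGAA and 33.8% hold CCAAT, so either match is common. The AP-1 motif TGANTCA (held by 6.75% of the windows) and the E-box CACGTG (6.02%) had no match in either run. The window of the second annotated Spp1 start (chr5:104435942-104436191), which is not shown, held none of these motifs. A match of letters is no binding site.

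In WT mice Spp1 had a lower summed level but a larger share of high cells after TAC than after sham. It was read at 1139 CPM (1130 to 1149) in WT sham, 477 (471 to 483) in CD3ϵ-/- sham, 633 (629 to 637) in WT TAC, 608 (603 to 612) in CD3ϵ-/- TAC and 623 CPM (618 to 629) in CD8-depleted TAC. By the sum WT sham was highest and the 3 groups after TAC were alike. A cell with at least 200 CPM of a gene is called high for it. Spp1-high cells made up 7.97% (5.85 to 10.6) of WT sham, 8.17% (5.85 to 11.04) of CD3ϵ-/- sham, 19.3% (17.0 to 21.8) of WT TAC, 24.2% (21.0 to 27.7) of CD3ϵ-/- TAC and 16.2% (13.4 to 19.5) of CD8-depleted TAC. All 3 groups after TAC thus held a larger share of Spp1-high cells than either sham group. Their intervals of counting error did not overlap those of the sham groups, which says nothing about spread between animals.

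The difference between the sum and the share came with very few cells. In WT sham 3 of 552 cells held at least 50% of the Spp1 reads, in CD3ϵ-/- sham 2 of 465, in WT TAC 15 of 1068, in CD3ϵ-/- TAC 11 of 652 and in CD8-depleted TAC 5 of 591. The highest cell of WT sham had 120107 CPM, which means that 12.01% of its reads were Spp1. The highest cells of the other groups had 27609, 29077, 25878 and 40563 CPM. Without the highest 1% of cells of each group the level was 107 CPM in WT sham, 88.6 in CD3ϵ-/- sham, 393 in WT TAC, 386 in CD3ϵ-/- TAC and 286 CPM in CD8-depleted TAC. The order of sham and TAC in WT mice turned around when these cells were left out, from a log2 ratio of -0.84 to 1.78. The median cell had 0, 6.16, 13.002, 18.4 and 11.8 CPM. By CPM the 3 highest cells of WT sham were all Gpnmb-gated, with 6162, 509 and 5187 CPM of Gpnmb, and had no read of Cd79a, Cd3g or Col1a1. By reads the order differed. The cell with the second most Spp1 reads (11889, at 39478 CPM) had 146 CPM of Gpnmb and was not Gpnmb-gated.

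**Figure D1:**
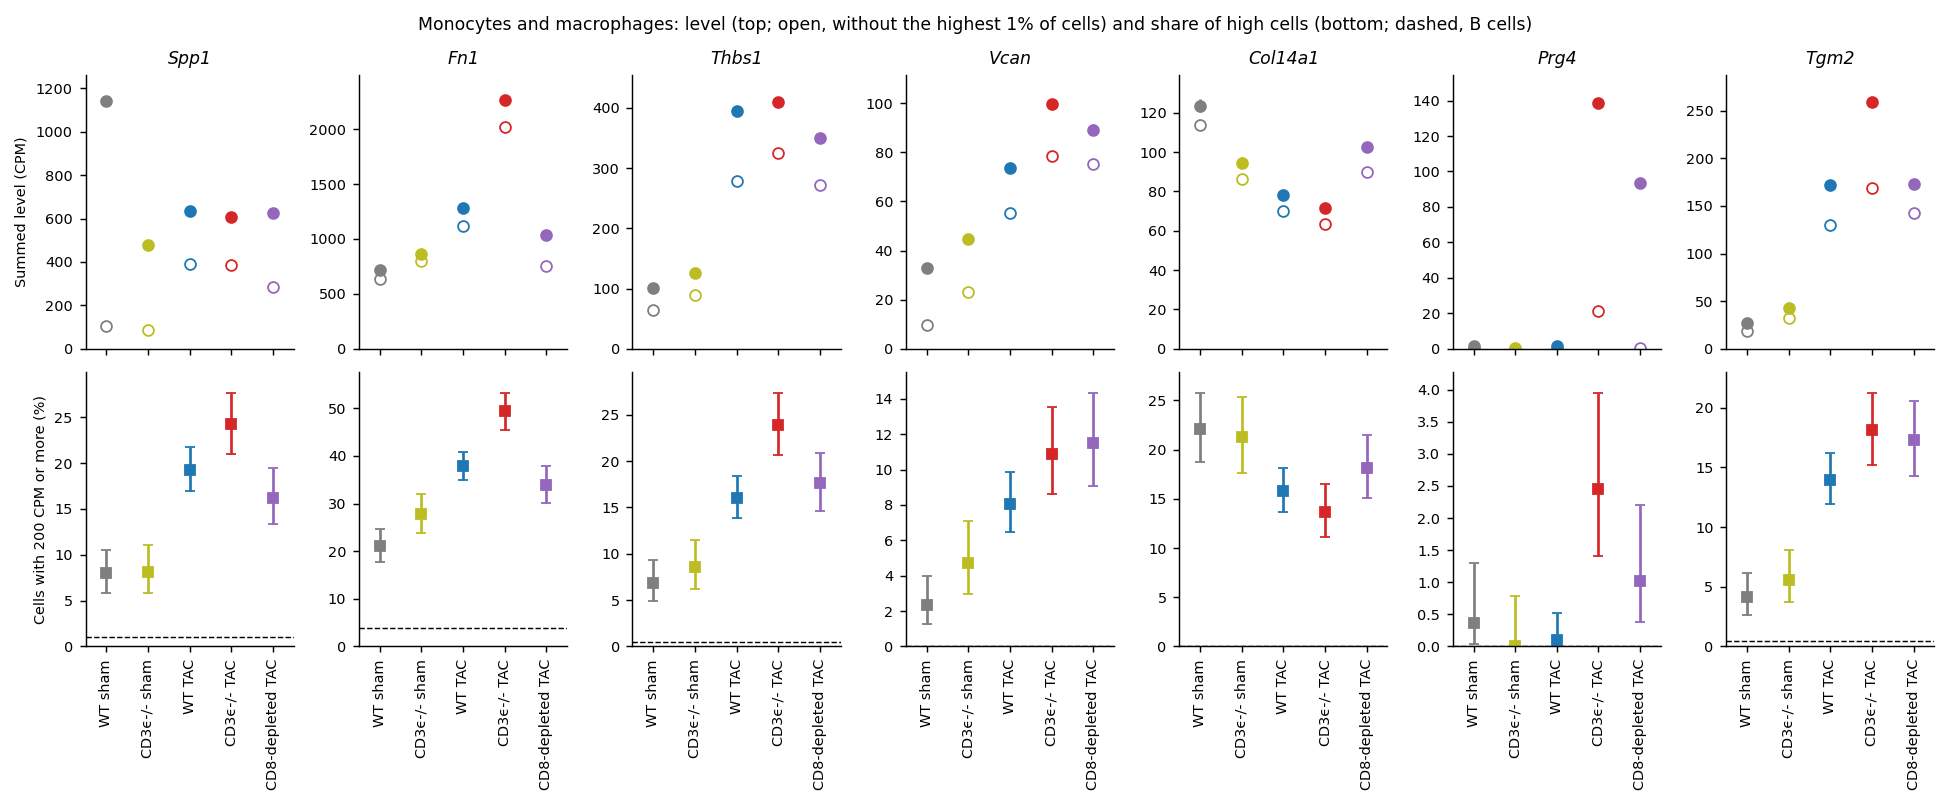
Level and share of high cells of the 7 genes in monocytes and macrophages, by group. Top, summed level in CPM with exact Poisson intervals (filled circles, intervals mostly smaller than the circle) and the level without the highest 1% of cells (open circles). Bottom, percentage of cells with 200 CPM or more, with Clopper-Pearson intervals, and the share in B cells of all groups (dashed). Spp1 in WT sham falls from 1139 to 107 CPM without its highest cells, while Col14a1 hardly moves.

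**Figure D2:**
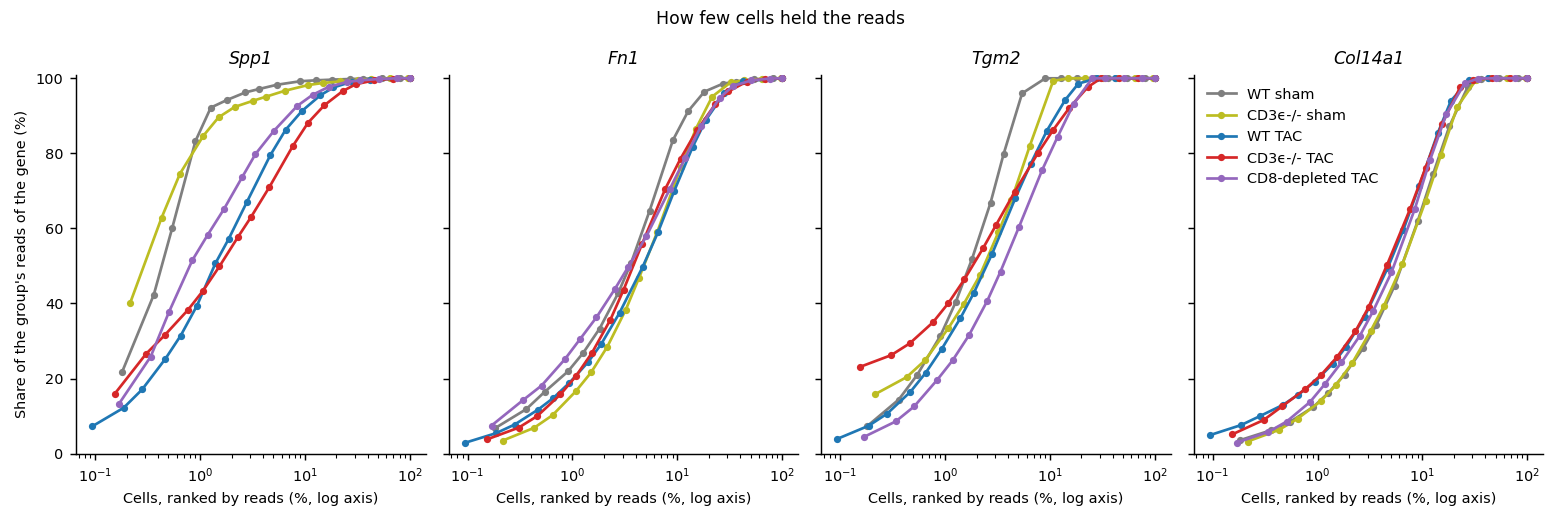
Percentage of a group's reads of a gene (vertical axis) held by its cells ranked by reads of that gene (horizontal axis, percentage of cells on a log scale), for Spp1, Fn1, Tgm2 and Col14a1, 1 line a group. The Spp1 lines of the 2 sham groups climb far to the left of those after TAC, with 83.3% of the reads of WT sham in 5 cells, whereas the Col14a1 lines of the 5 groups run close together.

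Free RNA and depth were looked at beside the shares. In 408 B cells (Cd79a and Ms4a1 positive, median depth 48595.5 reads against 99624 in all monocytes and macrophages) 4 cells were Spp1-high (0.980%), 16 Fn1-high (3.92%), 2 Thbs1-high (0.490%) and 2 Tgm2-high (0.490%). Vcan, Col14a1 and Prg4 had 0 high B cells of 408, with an exact upper bound of 0.900%. When every cell was thinned to 30000 reads, leaving out 28, 20, 32, 16 and 16 shallower cells, the Spp1-high share was 8.40%, 8.76%, 20.3%, 25.8% and 17.6%. Thinning also left the order of sham and TAC of Fn1, Thbs1, Vcan, Col14a1 and Tgm2 as it was. High cells were themselves deeper for 6 of the 7 genes, for example 134484 reads in the median Spp1-high cell against 94252.5 in the others. Col14a1 was the exception, with 81402.5 against 105072 reads.

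Fn1 was highest in CD3ϵ-/- TAC. Its level was 719 CPM in WT sham, 863 in CD3ϵ-/- sham, 1283 in WT TAC, 2261 in CD3ϵ-/- TAC and 1037 CPM in CD8-depleted TAC. The share of Fn1-high cells had the same order, with 21.0% (17.7 to 24.7), 27.7% (23.7 to 32.1), 37.9% (35.0 to 40.9), 49.4% (45.5 to 53.3) and 33.8% (30.03 to 37.8). Leaving out the highest 1% of cells gave 636, 804, 1122, 2021 and 756 CPM, so the level of Fn1 did not rest on so few cells as that of Spp1.

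Thbs1 and Tgm2 were low in both sham groups and several times higher in all 3 groups after TAC. Thbs1 was read at 100 CPM in WT sham, 127 in CD3ϵ-/- sham, 395 in WT TAC, 410 in CD3ϵ-/- TAC and 350 CPM in CD8-depleted TAC. Tgm2 was read at 26.8, 42.8, 172, 259 and 173 CPM. Thbs1-high cells were 6.88% (4.92 to 9.33), 8.60% (6.22 to 11.5), 16.0% (13.9 to 18.4), 23.9% (20.7 to 27.4) and 17.6% (14.6 to 20.9), and Tgm2-high cells 4.17% (2.66 to 6.19), 5.59% (3.68 to 8.08), 14.0% (11.9 to 16.2), 18.1% (15.2 to 21.3) and 17.3% (14.3 to 20.6). For both genes the intervals of the sham groups lay below those of the groups after TAC.

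In WT and in CD3ϵ-/- mice Vcan was higher and Col14a1 lower after TAC than after sham. Vcan was read at 32.8 CPM in WT sham, 44.6 in CD3ϵ-/- sham, 73.8 in WT TAC, 99.6 in CD3ϵ-/- TAC and 89.2 CPM in CD8-depleted TAC. Col14a1 was read at 124, 94.6, 78.0, 71.4 and 103 CPM. Both were higher in CD8-depleted TAC than in WT TAC. Vcan-high cells made up 2.36% (1.26 to 3.99), 4.73% (2.99 to 7.08), 8.05% (6.49 to 9.85), 10.9% (8.60 to 13.5) and 11.5% (9.05 to 14.4). The interval of CD3ϵ-/- sham overlapped that of WT TAC. Col14a1-high cells made up 22.1% (18.7 to 25.8), 21.3% (17.7 to 25.3), 15.8% (13.7 to 18.2), 13.7% (11.1 to 16.5) and 18.1% (15.1 to 21.5). The interval of CD3ϵ-/- sham overlapped those of WT TAC and CD8-depleted TAC. Col14a1 had the most evenly spread reads of the 7 genes, since 176 cells of all groups held at least 50% of them, against 4 to 107 cells for the others. Without the highest 1% of cells it stood at 114, 86.3, 69.9, 63.5 and 89.8 CPM.

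Prg4 was close to absent from 3 of the groups. It had 78 reads in WT sham, 24 in CD3ϵ-/- sham, 252 in WT TAC, 14625 in CD3ϵ-/- TAC and 6863 reads in CD8-depleted TAC, which is 1.53, 0.454, 1.85, 138 and 93.2 CPM. High cells numbered 2, 0, 1, 16 and 6. The 24 reads of CD3ϵ-/- sham came from 1 cell of 198 CPM, and 40 of the 252 reads of WT TAC from a cell of 61.6 CPM. In CD3ϵ-/- TAC 3 cells held at least 50% of them and in CD8-depleted TAC 1 cell did.

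The groups were compared by the log2 ratio of summed CPM with 10 CPM added, over genes with 20 CPM or more in at least 1 of the 2 groups, and a gene was counted as called when the ratio reached 2-fold. The 5 comparisons share groups, so their counts are not independent of each other, and since the genes were picked on these levels the share of all genes stands beside each count as background only. In WT TAC over WT sham 2 of 6 genes above the floor were called higher, against 1.1% of 7012 genes, and 0 lower, against 0.727%. These were Thbs1 at 1.88 and Tgm2 at 2.30, while Vcan at 0.97 and Fn1 at 0.83 stayed short of 2-fold. Spp1 at -0.84 and Col14a1 at -0.60 were on the other side.

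In CD3ϵ-/- TAC over CD3ϵ-/- sham 5 of 7 genes were called higher, against 1.87% of 6944 genes, and 0 lower, against 1.14%. Prg4 had 3.83, Tgm2 2.35, Thbs1 1.62, Fn1 1.38 and Vcan 1.01, and Vcan was thus only just past 2-fold. Spp1 had 0.34 and Col14a1 -0.36. Between the sham groups 0 of 6 genes were called higher in CD3ϵ-/-, against 0.304% of 6919 genes, and 1 was lower, against 0.159%. That gene was Spp1 at -1.24, and without the highest 1% of cells the value was -0.25.

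Among the groups after TAC Prg4 was the gene that was called in either comparison. In CD3ϵ-/- TAC over WT TAC 1 of 7 was higher, against 0.377% of 6904 genes, and 0 lower, against 0.232%, with Prg4 at 3.65, Fn1 at 0.81, Tgm2 at 0.56, Vcan at 0.39, Thbs1 at 0.05, Spp1 at -0.06 and Col14a1 at -0.11. In CD8-depleted TAC over WT TAC 1 of 7 was higher, against 0.13% of 6899 genes, and 0 lower, against 0.174%. Prg4 was at 3.12 there, and the other 6 genes lay between -0.30 (Fn1) and 0.35 (Col14a1). The median over all genes compared was between -0.02 and 0.05 in the 5 comparisons.

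The genes lay in different cells. Monocytes and macrophages were parted in a fixed order by CPM of 1 gene at a time. The classes were Lyve1-gated (200 CPM or more, 196 cells), Gpnmb-gated (300, 127 cells), Ly6c2-gated (500, 497 cells), Cd209a-gated (200, 92 cells), Ccr2-gated (1000, 1142 cells) and the remaining 1274 cells, called the Ccr2-low rest. Lyve1 marks resident macrophages near vessels, Gpnmb marks lipid-handling macrophages, Ly6c2 marks classical monocytes, Cd209a marks monocyte-derived antigen-presenting cells, and Ccr2 is the receptor by which monocytes enter tissue. The classes are ranges of CPM and not cell types, since 388 cells lay within 1.5-fold of the Ccr2 cut-off and 143 within 1.5-fold of that for Ly6c2. The makeup differed between groups. Ly6c2-gated cells were 4.35% of WT sham, 6.67% of CD3ϵ-/- sham, 14.1% of WT TAC, 24.8% of CD3ϵ-/- TAC and 21.8% of CD8-depleted TAC.

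Spp1 was concentrated in Gpnmb-gated cells, at 5516 CPM against 604 in the Ccr2-low rest, 338 in Ly6c2-gated, 196 in Ccr2-gated, 102 in Lyve1-gated and 81.4 in Cd209a-gated cells. These 127 cells held 51.3% of all Spp1 reads, and 98 of them (77.2%) were Spp1-high. Their level was 14823 CPM in WT sham (11 cells), 17007 in CD3ϵ-/- sham (3 cells), 3474 in WT TAC (56 cells), 4804 in CD3ϵ-/- TAC (27 cells) and 4965 CPM in CD8-depleted TAC (30 cells). Gpnmb-gated cells were thus few in the sham groups, and the level of this class in WT sham rests mainly on 3 of its 11 cells. The median Gpnmb-gated cell had 1539, 20283, 1617, 2631 and 667 CPM in the 5 groups, so the median of WT sham was below that of WT TAC. Outside this class Spp1 was lower in WT TAC than in WT sham in the Ccr2-low rest, with 1015, 424, 653, 550 and 319 CPM. The value of WT sham there rests mainly on 3 of 293 cells, with 39478, 35235 and 19110 CPM. Spp1 was higher after TAC in Ccr2-gated cells, with 119, 65.8, 239, 220 and 223 CPM, and in Ly6c2-gated cells, with 142, 42.3, 434, 229 and 495 CPM.

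Vcan was a gene of Ly6c2-gated cells. It stood at 251 CPM in Ly6c2-gated cells and at 60.0 in Ccr2-gated, 28.3 in Cd209a-gated, 25.1 in the Ccr2-low rest, 3.22 in Lyve1-gated and 2.81 in Gpnmb-gated cells, and Ly6c2-gated cells held 58.1% of its reads. Within Ly6c2-gated cells its level was 288 CPM in WT sham (24 cells), 277 in CD3ϵ-/- sham (31 cells), 247 in WT TAC, 237 in CD3ϵ-/- TAC and 266 CPM in CD8-depleted TAC. Within Ly6c2-gated cells Vcan was thus not higher after TAC than after sham. In Ccr2-gated cells it was higher after TAC, with 26.6, 40.9, 62.4, 80.1 and 62.8 CPM, and in the Ccr2-low rest it stood at 20.8, 17.6, 38.8, 24.8 and 13.2 CPM. Given the class makeup of WT TAC, the 5 groups stood at 61.1, 63.9, 73.8, 85.9 and 72.7 CPM.

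Thbs1 was highest in the same class, at 765 CPM, and was between 144 and 270 CPM in the other classes apart from Lyve1-gated cells, where it was at 20.004. Its level in Ly6c2-gated cells was 535 CPM in WT sham, 643 in CD3ϵ-/- sham, 1020 in WT TAC, 638 in CD3ϵ-/- TAC and 724 CPM in CD8-depleted TAC. In Ccr2-gated cells it was 85.6, 91.7, 385, 310 and 225 CPM, and in the Ccr2-low rest 77.6, 87.9, 261, 335 and 312 CPM. Sham and TAC thus differed more in these 2 classes than among Ly6c2-gated cells, in which CD3ϵ-/- TAC and CD3ϵ-/- sham were alike.

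Tgm2 was also prominent in Ly6c2-gated cells (344 CPM), and here sham and TAC lay far apart, with 68.7, 54.6, 488, 249 and 432 CPM. In Ccr2-gated cells Tgm2 was at 32.0, 46.3, 151, 141 and 74.7 CPM and in the Ccr2-low rest at 22.1, 46.6, 108, 204 and 119 CPM. The class value was highest in Cd209a-gated cells (449 CPM), yet 6304 of the 6870 Tgm2 reads of that class in CD3ϵ-/- TAC came from 1 cell of 701113 reads, and the other 4 groups had 16.8 to 50.9 CPM there. With every group given the class makeup of WT TAC, Thbs1 stood at 162, 186, 395, 422 and 309 CPM and Tgm2 at 36.2, 46.9, 172, 365 and 146 CPM, so both remained higher after TAC. The Tgm2 value of CD3ϵ-/- TAC gives more weight to its 5 Cd209a-gated cells, of which the 1 cell above held 23.1% of all Tgm2 reads of the group.

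Pooled over the groups Fn1 was read in all classes, from 931 CPM in Gpnmb-gated to 1562 in Cd209a-gated cells. In Lyve1-gated cells it stood at only 30.5 CPM in WT sham, 24.5 in CD3ϵ-/- sham, 506 in WT TAC and 26.5 in CD8-depleted TAC. The pooled value of that class thus rests mainly on the 15 cells of CD3ϵ-/- TAC, of which 1 had 17630 CPM. In Ly6c2-gated cells Fn1 stood at 1695 CPM in WT sham, 1487 in CD3ϵ-/- sham, 1690 in WT TAC, 1406 in CD3ϵ-/- TAC and 959 CPM in CD8-depleted TAC, so no group after TAC was above WT sham. In the Ccr2-low rest it stood at 358, 530, 1020, 3105 and 999 CPM, and in Ccr2-gated cells at 1139, 1111, 1527, 1945 and 1301 CPM. Among the Ly6c2-gated, Ccr2-gated and Ccr2-low rest cells, the high value of CD3ϵ-/- TAC was thus most marked in the Ccr2-low rest. There 35.4% of its cells were Fn1-high against 8.87% in WT sham. Given the class makeup of WT TAC, Fn1 stood at 1048, 937, 1283, 2452 and 1054 CPM in the 5 groups. With that makeup CD8-depleted TAC was close to WT sham.

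Col14a1 was a gene of the Ccr2-low rest. It was at 187 CPM in the Ccr2-low rest, which held 65.2% of its reads, and at 107 in Lyve1-gated, 58.8 in Ccr2-gated, 24.6 in Gpnmb-gated, 20.6 in Cd209a-gated and 7.13 in Ly6c2-gated cells. Within the Ccr2-low rest it stood at 184 CPM in WT sham, 196 in CD3ϵ-/- sham, 191 in WT TAC, 151 in CD3ϵ-/- TAC and 225 CPM in CD8-depleted TAC. In the Ccr2-low rest WT sham and WT TAC thus differed little. In WT TAC it was lower than in WT sham in Ccr2-gated cells, with 91.5, 37.5, 46.3, 60.0 and 83.4 CPM, and in Lyve1-gated cells, with 125, 124, 85.3, 84.6 and 123 CPM. The class was 53.1%, 45.8%, 33.1%, 32.5% and 34.2% of the cells. Fibroblast genes were checked because they also make collagen XIV, and the summed level of their 5 markers in the gate was 3.04, 60.9, 3.02, 2.999 and 2.59 CPM. In CD3ϵ-/- sham 51.6 of the 60.9 CPM was Dcn, which had no read in the other 4 groups. All 2727 Dcn reads lay in 1 cell, which was Vcan-high, and Col14a1-high cells had no Dcn read. The part of that cell in the Vcan value of CD3ϵ-/- sham was not tested.

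**Figure D3:**
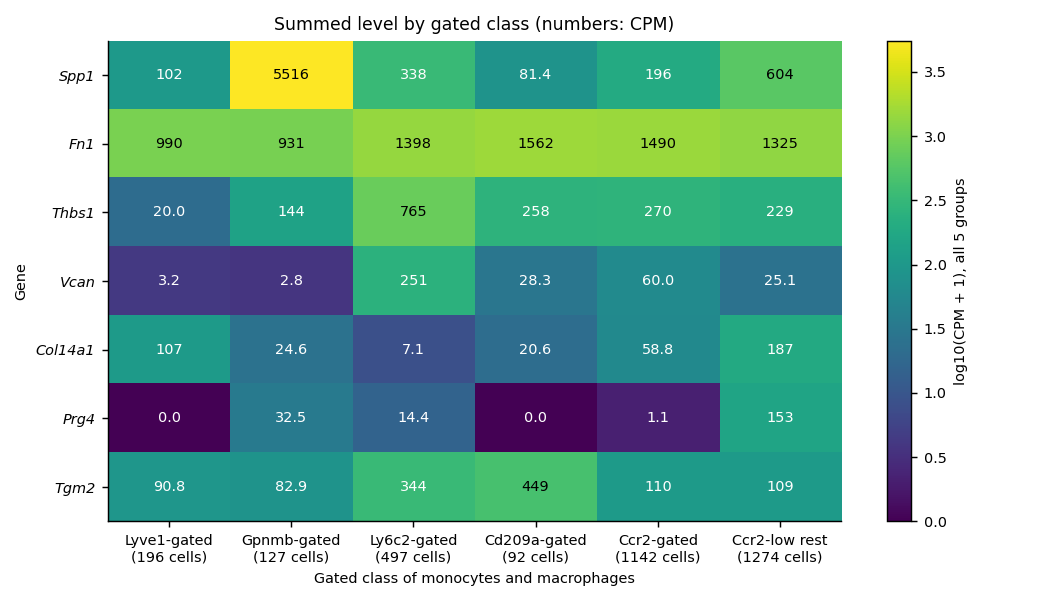
Summed level of each gene (rows) in the 6 gated classes of monocytes and macrophages (columns) over all 5 groups, in CPM as printed in each cell, with colour on a log10(CPM + 1) scale. Spp1 peaks in Gpnmb-gated cells, Vcan and Thbs1 in Ly6c2-gated cells and Col14a1 in the Ccr2-low rest. Values are to be read along a row.

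**Figure D4:**
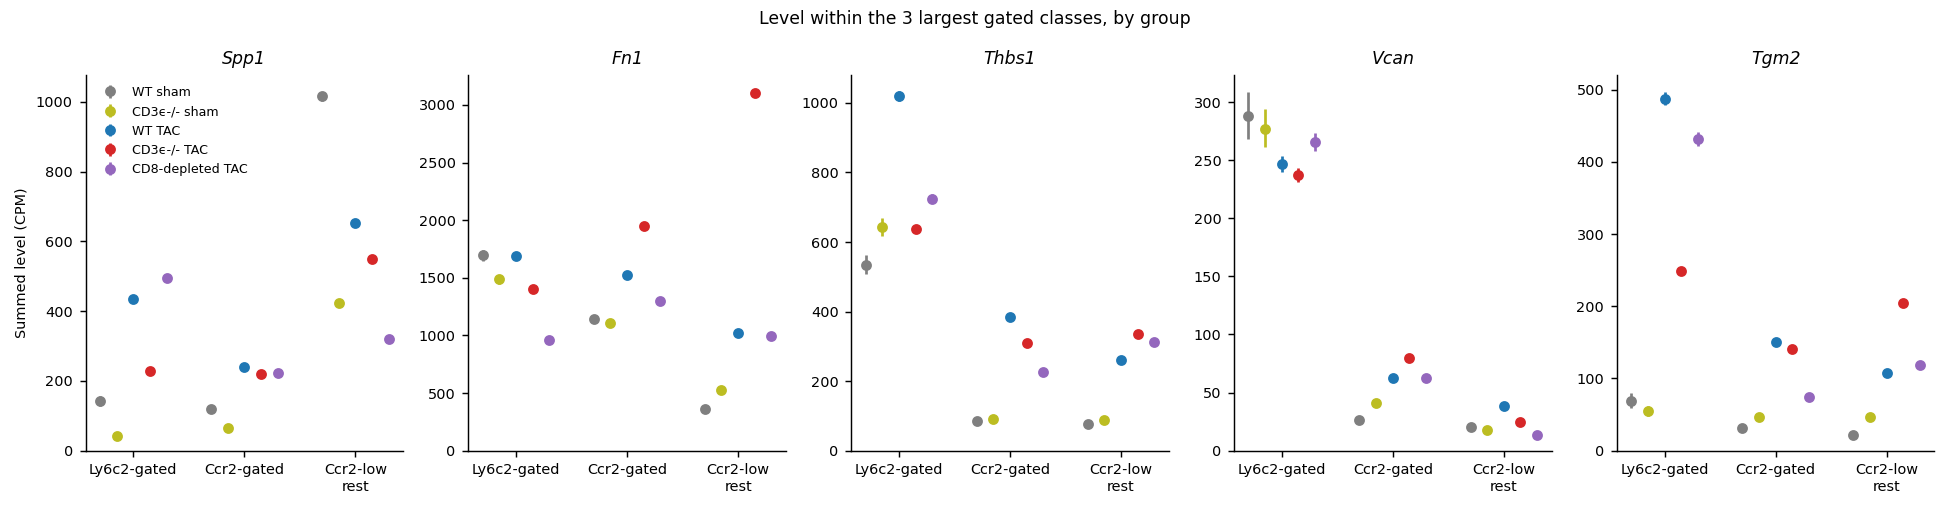
Summed level in CPM (vertical axis, from 0) of 5 genes within the 3 largest classes, by group, with exact Poisson intervals, most of which are smaller than the point. In Ly6c2-gated cells Tgm2 is at 54.6 to 68.7 CPM in the sham groups and 249 to 488 after TAC, whereas Vcan is at 237 to 288 CPM in all 5 groups.

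Several of the genes were high in the same cells. Fn1-high cells made up 35.2% of all cells. Of 260 Vcan-high cells 216 (83.1%) were also Fn1-high, which is 18.4% of the 1172 Fn1-high cells, and 388 of 509 Thbs1-high cells (76.2%) were Fn1-high, which is 33.1% of the Fn1-high cells. Thbs1 and Tgm2 were both high in 195 cells, and Thbs1 and Vcan in 153. No cell was high for both Vcan and Col14a1, although 260 and 586 cells were high for either, and 15 cells were high for Thbs1 and Col14a1. Cells with none of the 7 genes high made up 51.3% of WT sham, 43.4% of CD3ϵ-/- sham, 36.0% of WT TAC, 23.8% of CD3ϵ-/- TAC and 35.0% of CD8-depleted TAC. Cells with 3 genes high made up 3.80%, 3.87%, 8.90%, 13.8% and 8.97%. High cells are deeper than others, and the part of depth in these counts was not tested.

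Among monocytes and macrophages Prg4 reads lay mainly in the Ccr2-low rest, which held 90.6% of these reads. The 25 Prg4-high cells shared other genes. Of the 22 in CD3ϵ-/- TAC and CD8-depleted TAC, all had reads of Saa3 (16 of 16 and 6 of 6), an acute-phase serum amyloid gene, and most had reads of Icam2 (13 and 6) and Gata6 (9 and 4), which mark macrophages of the serous cavities. Arg1 was read in 16 and 3 of them, and Cxcl13, a further marker of serous cavity macrophages, in only 7 and 1. A Saa3 read by itself was common, since 40.9% of the cells that were not Prg4-high also had one, and 1 of the 22 had 3.96 CPM. The summed level of Saa3 was 14542 CPM in Prg4-high cells and 68.7 CPM in the others. The 3 Prg4-high cells of WT sham and WT TAC had no Saa3 read. Of all 25 cells 24 were also Fn1-high. Their median depth was 252563 reads against 98869 in the other cells, and the part of depth in these counts of cells with a read was not tested. Col1a1 and Dcn, fibroblast genes, and Upk3b, a mesothelial gene, had no read in these cells, and the mesothelial gene Msln was read in 2 of the 16 cells of CD3ϵ-/- TAC, at 0.491 CPM. Prg4 ranged from 212 to 9713 CPM in the 16 cells of CD3ϵ-/- TAC and from 1501 to 10639 CPM in the 6 of CD8-depleted TAC.

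**Figure D5:**
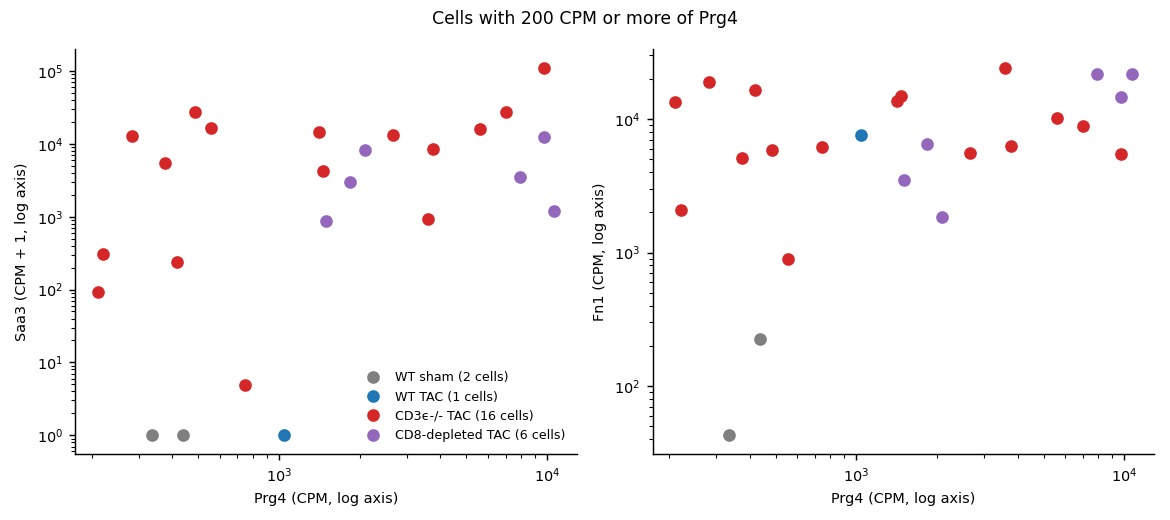
Each point is 1 of the 25 monocytes and macrophages with 200 CPM or more of Prg4, coloured by group. Prg4 in CPM is on the horizontal axis and Saa3 (left, CPM + 1) or Fn1 (right, CPM) on the vertical axis, all on log scales. The 22 cells of CD3ϵ-/- TAC and CD8-depleted TAC have Saa3 reads, and the 3 cells of WT sham and WT TAC lie at 0 reads of Saa3.

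Cells with 500 CPM or more of Saa3 carried a large part of several genes in CD3ϵ-/- TAC. They numbered 0 in WT sham, 0 in CD3ϵ-/- sham, 4 in WT TAC, 28 in CD3ϵ-/- TAC and 10 cells in CD8-depleted TAC. In CD3ϵ-/- TAC these 28 cells were 4.29% of the monocytes and macrophages. They held 96.5% of the Prg4 reads, 33.0% of Tgm2, 32.7% of Fn1, 16.5% of Thbs1, 8.51% of Spp1 and 2.49% of Vcan. A share of reads also depends on the depth of the cells. Without these cells Tgm2 stood at 191 CPM in place of 259, Thbs1 at 378 in place of 410 and Spp1 at 613 in place of 608. Col14a1 stood at 71.6 CPM in place of 71.4 and Vcan at 107 in place of 99.6. The levels of Spp1, Col14a1 and Vcan were thus not raised by these cells. In CD8-depleted TAC the 10 cells held 99.4% of Prg4 and 18.5% of Fn1. Without them Fn1 stood at 1255 CPM in WT TAC, 1678 in CD3ϵ-/- TAC and 868 CPM in CD8-depleted TAC, and its log2 ratio of CD3ϵ-/- TAC over WT TAC was 0.42 in place of 0.81. Over all monocytes and macrophages the summed level of 8 serous cavity macrophage markers was 41.0, 47.7, 251, 2363 and 291 CPM, with Cxcl13 and Alox15 at 0 in CD3ϵ-/- sham. This list holds Saa3 and Arg1, which made up most of its sum in Fn1-high cells of all groups. There Saa3 stood at 702 and Arg1 at 642 of 1530 CPM, with Icam2 at 30.3 and Gata6 at 2.14. The sum is thus no measure of the number of serous cavity macrophages. The summed level of 4 mesothelial markers was at most 0.981 CPM in every group.

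Cells outside the gate also carried some of the genes. In 36 cells gated as neutrophils Thbs1 stood at 966 CPM with 30.6% of cells high, and Tgm2 at 498 CPM with 36.1% high. The summed level of 4 neutrophil markers within monocytes and macrophages was 51.6 CPM in WT sham, where S100a8 and S100a9 were at 0, and 136, 113, 119 and 191 CPM in the other groups. The part of neutrophil reads in these values was not tested. In 429 cells that met neither myeloid cut-off and no gate of another cell type, Vcan stood at 70.8 CPM with 5.36% of cells high. Prg4 stood at 36.7 CPM in these 429 cells, of which 7 were high. Of 564 cells that met 1 of the 2 myeloid cut-offs, 2 were Prg4-high.

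As a set the receptors of these proteins differed little between sham and TAC. Of 16 listed receptor genes 13 passed the floor and 0 were called higher in any comparison. Over all genes 1.1% were called higher in WT TAC over WT sham and 1.87% in CD3ϵ-/- TAC over sham. A count of 0 in 13 is near these shares. The median log2 ratio of the receptors was 0.13 in WT and 0.12 in CD3ϵ-/- against 0.03 and 0.05 over all genes. Of the integrin genes Itga5 stood at 0.63 and 0.49, Itgb5 at 0.43 and 0.66 and Itga9 at -0.44 and -0.89, short of 2-fold. Cd44, the osteopontin and hyaluronan receptor, stood at 403, 556, 473, 485 and 492 CPM, and Cd47, the thrombospondin receptor, at 382, 398, 413, 432 and 429 CPM. Cd36, which binds thrombospondin-1 and takes up fatty acids, was the 1 gene called lower, in CD3ϵ-/- TAC over sham, against 1.14% of all genes. Cd36 stood at 349, 402, 180, 140 and 141 CPM, with a log2 ratio of -1.46 (-0.92 in WT). Thbs1 and Cd36 thus differed in opposite directions between sham and TAC. They were highest in different classes, Thbs1 in Ly6c2-gated and Cd36 in Lyve1-gated cells. Lyve1-gated cells were 12.5%, 6.45%, 4.87%, 2.30% and 5.08% of the 5 groups. The part of class makeup in the Cd36 values was not tested.

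Few other matrix genes passed the floor. Of 24 other matricellular genes in the matrix 6 passed the floor in WT TAC over WT sham, with a median log2 ratio of 0.50, and 5 in CD3ϵ-/- TAC over sham, with 0.73. Ecm1, a secreted matrix glycoprotein, was the 1 called higher after TAC in either genotype, at 73.5, 98.7, 182, 356 and 166 CPM (1.20 and 1.75). Over all genes 1.1% were called higher in WT and 1.87% in CD3ϵ-/- mice. Tgfbi, an integrin-binding matrix protein, stood at 827, 809, 1281, 1348 and 1379 CPM, short of 2-fold. Of 12 proteoglycans and versican proteases Srgn (serglycin, the proteoglycan of leukocyte granules) passed the floor in all 5 groups, at 746, 1105, 1043, 1461 and 999 CPM, and Dcn in CD3ϵ-/- sham alone. Of 14 other collagens 0 passed it, whereas Col14a1 passed it in every comparison. Of 10 other crosslinking genes 3 passed and 0 were called, against at most 1.87% of all genes in any comparison and direction. Among the 3 was F13a1, the chain of coagulation factor XIII that crosslinks fibrin, at 899, 563, 493, 414 and 605 CPM.

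The genes with the most similar pattern were found by Pearson correlation of log2 levels over 24 profiles of class by group with 20 or more cells, among 6050 genes. The profiles share 1 library and differ in depth, so the values are a description. Among the 7 genes Thbs1 went with Tgm2 (0.88), Vcan (0.85) and Fn1 (0.79), and Col14a1 ran against Vcan (-0.44) and Fn1 (-0.40). Nearest to Spp1 were Nceh1 (0.89), Fam20c, Ctsz, Fnip2 and Igf2r, and among those nearest to Fn1 were Fgr (0.88), Fxyd5, Cmpk1 and Arhgap27. Nearest to Thbs1 were Abi3 (0.93), Msrb1, Osm, C3 and Gsr, and nearest to Tgm2 were Gk (0.90), Ikbke, Hif1a, Slfn4 and Abi3. Vcan was nearest to Nxpe4 (0.93), Hp, Gm9733, Samhd1 and Gm5150, and Col14a1 to Lilra5 (0.93), Slco2b1, Itga9, Tanc2 and Txnip. Prg4 was nearest to Lrg1 (0.91), Alox15, Saa3, Cd5l and Cxcl13, but its values rest on the few cells described above.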

How the data were processed

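Heart CD45+ cells of 5 hashtagged groups were read as 1 pooled TAS-Seq library. The authors deposited a matrix of counts, in which each value is the whole number of reads of 1 gene in 1 barcode, without normalization. Per the submitters' processing notes, cutadapt 2.10 and Bowtie2 2.4.2 were used and GRCm38 was the build. The authors filtered barcodes, corrected read errors, assigned hashtags and called doublets. Hashtags were matched to groups through the notes deposited with the matrix. Of 5363 barcodes, 40 called doublets and 8 without hashtag were left out. Doublets within 1 hashtag cannot be seen this way, and no other caller was run. Barcodes with 500 genes or more and a mitochondrial share of at most 0.4 were kept, the filter of the study's methods.

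Counts were summed over the cells of a group or class and scaled to 1000000 reads (CPM), with Python 3.11.15, numpy 2.4.6, scipy 1.17.1 and pandas 2.3.3. Reads are not molecules, so amplification can weigh single cells. With 1 sample a group no test was run. A ratio has 10 CPM added, 20 CPM as its floor and 2-fold as its limit. The ratio code was tested on simulated data. The results were also recomputed under 12 alternatives, and under 2 more chosen after seeing the data. The 7 genes, the gates and the gene lists were chosen with earlier results of these data known. All 7 are named, with the 5 genes nearest in pattern to each (1 of these is not reported here), list genes that are high or past 2-fold, T cell genes as the label check, and genes of other cell types beside the values they move with.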

Additional observations from a re-analysis of the deposited data

Results flagged for a closer look

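Spp1 differed between genotypes in the direction of its summed level after TAC. The log2 ratio of TAC over sham was -0.84 in WT and 0.34 in CD3ϵ-/- mice. The difference between these ratios was not tested, since each group is 1 sample. The WT value turned to 1.78 and the CD3ϵ-/- value to 2.01 without the highest 1% of cells of each group, and the share of Spp1-high cells was larger after TAC in either genotype.

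Barcodes outside the 5 groups held 2 of the genes above the highest group. Over the 40 barcodes called doublets Vcan stood at 124 CPM (116 to 133), against at most 92.1 CPM over all kept CD45+ cells of a group, and 5 of the 40 were Vcan-high. Over the 8 barcodes without a hashtag Col14a1 stood at 137 CPM (119 to 157), against at most 84.6 CPM, and 2 of the 8 were high. These differences were not tested.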

How the results depend on the processing

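Of 490 ratios (35 under 14 alternatives), 461 kept their direction and their side of 2-fold, or stayed short of 2-fold in either setting, 12 fell short of 2-fold, 14 came past it and 3 turned around. Spp1 in WT TAC over WT sham was 1.78 without the highest 1% of cells, Spp1 in CD3ϵ-/- TAC over sham was -1.18 with the class makeup of WT TAC, and Prg4 in CD8-depleted TAC over WT TAC was -0.17 without the Saa3 cells, an alternative chosen after seeing the data. In WT TAC over WT sham the count of genes called higher was 4 in place of 2 with the mean of single-cell CPM, without cells above the 95th percentile of reads, and without the highest 1% of cells. With the class makeup of WT TAC, Spp1 was called lower after TAC (1 gene in place of 0 in each genotype). This makeup gives more weight to the Gpnmb-gated cells of the sham groups, 11 in WT sham and 3 in CD3ϵ-/- sham. Spp1 stood at 1572 CPM in place of 1139 in WT sham and at 1564 in place of 477 in CD3ϵ-/- sham. With the same makeup 0 in place of 1 gene was lower in CD3ϵ-/- sham than in WT sham. CD3ϵ-/- TAC exceeded WT TAC for 2 genes in place of 1 (Prg4 and Tgm2). Tgm2 rested largely on 1 Cd209a-gated cell that held 23.1% of the Tgm2 reads of CD3ϵ-/- TAC. Without the highest 1% of cells the count was 0 in place of 1 for genes lower between the sham groups and for genes higher in CD8-depleted TAC. Without the cells high for Prg4, also chosen after seeing the data, and without the Saa3 cells, 0 genes in place of 1 were higher in CD3ϵ-/- TAC or in CD8-depleted TAC than in WT TAC, and without the Saa3 cells 3 in place of 5 were higher in CD3ϵ-/- TAC than in CD3ϵ-/- sham. The causes were not tested, other than that these alternatives take out the named cells. The class with the highest level was the same for 6 of 7 genes with the class cut-offs at 50% (Prg4 moved), for 5 of 7 with them doubled (Fn1 and Tgm2 moved to Ly6c2-gated cells) and for 7 of 7 with the Ly6c2 and Ccr2 gates first. The share of high cells was larger in WT TAC than in WT sham for 5 of 7 genes, also at 100 CPM and after thinning, and for 6 at 500 CPM. No paired analysis was possible because each group is 1 sample. Values of Prg4 in monocytes and macrophages rest on 25 high cells.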
